A study of Mus musculus with 4 samples.

Results

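Complex I, NADH:ubiquinone oxidoreductase, is the entry enzyme of the mitochondrial respiratory chain. Its genes were examined in B16-F10-luc-G5 melanoma tumours, where 31 of 33 measured subunit genes had a lower mean signal in VAP-1 -/- hosts than in wild-type hosts. Members were all genes whose annotated symbol begins with Ndufa, Ndufb, Ndufc, Ndufs or Ndufv followed by a digit, plus Ndufab1, and each gene was read at its brightest probe. This gave 33 genes of 17711 named on the array, and 32 of them lay above the filter on dim probes. The enzyme has a peripheral arm in the matrix, which oxidises NADH and passes electrons along iron-sulfur clusters to ubiquinone, and a membrane arm that pumps protons. A small set of core subunits carries out catalysis, and the rest are accessory subunits needed for assembly or stability. The core subunits of the membrane arm are encoded by mitochondrial DNA, and the nuclear core subunits belong to the peripheral arm. B16 is a pigmented mouse melanoma, and tumours of this kind are known to use respiration as well as glycolysis.

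Tumour RNA was hybridised to Illumina bead arrays, 1 array per tumour, from 2 wild-type mice (arrays WT 2 and WT 3, numbered as labelled) and 2 mice without VAP-1, vascular adhesion protein 1 (arrays KO 1 and KO 2). The same luciferase-carrying melanoma line was injected under the abdominal skin of every mouse, and tumours were taken on day 10. The host, not the injected line, carries the deletion, so each sample mixes melanoma cells of 1 line with host cells. Strain, age and sex of the mice were not given in the sources used here. Signals are log2 intensities after background correction and quantile normalization, and differences are knockout minus wild type with the standard error (SE) of the limma fit.

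The median unnormalized signal was 63.34 on WT 2, 55.31 on WT 3, 64.81 on KO 1 and 68.27 on KO 2. The 75th percentile was 96.99, 88.28, 112.86 and 126.75 in that order. WT 3 was thus the dimmest array before normalization, and both knockout arrays were brighter than both wild-type arrays. The part of this in the complex I values was not tested. Aoc3, which encodes VAP-1, read 8.01 and 7.18 on the wild-type arrays and 7.29 and 7.16 on the knockout arrays, so WT 3 lay at the knockout level and this probe does not check the genotypes. Groups are therefore named as the arrays are labelled. All 8 melanocyte markers lay above the filter on dim probes, with a summed linear level of 94946 to 96713 in wild type and 105054 to 110583 in the knockout. The summed level of 9 skeletal muscle genes was 4286 to 4559 in wild type against 11215 on KO 1 and 5695 on KO 2, and that of 9 keratinocyte genes was 6338 to 7152 against 20454 and 8073. The 4 erythroid genes summed to 66232 to 70500 in wild type and 19924 to 34889 in the knockout, and the 7 granulocyte genes to 2128 to 3345 and 578 to 709. Of the granulocyte markers S100a8 and S100a9 differed by -3.27 and -2.4, Camp by -0.57 and Retnlg by -0.25. Ngp, Ltf and Mmp8 lay below the filter, and the median difference of the 7 genes was -0.25. The 5 adipocyte genes summed to 388 to 519 and 485 to 531, with Fabp4 and Plin1 below the filter. The part of these tissues in the complex I values was not tested. In whole tumours, fewer cells of a type and less RNA per cell cannot be told apart.

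Nuclear genes of the respiratory chain are known to be controlled by the factors NRF1, GABP of the ETS family and YY1, so the RefSeq promoter windows of the members (GRCm38.p6, 250 bases before to 50 bases after a start) were searched for their core letters on both strands. Windows were found for 30 of 33 members, all except Ndufa2, Ndufb9 and Ndufs1. The NRF1 letters, GCGCA and GCGC with any 1 base between them, occurred in 5 of the 30 genes (16.7%) against 5.19% of all 27025 genes with a window. The YY1 letters AAGATGGCG occurred in 4 (13.3%) against 1.64%, and the ETS letters CCGGAAG in 4 (13.3%) against 9.93%. No member held more than 1 kind of these motifs, so 13 of 30 held any of them (43.3%, against 15.1% of all genes). The stretches around the NRF1 match nearest to the start are shown on the strand of each gene, with the match in capitals, because it was the motif found in most members.
Ndufa5: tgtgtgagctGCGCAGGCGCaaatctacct
Ndufa6: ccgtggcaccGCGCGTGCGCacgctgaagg
Ndufa8: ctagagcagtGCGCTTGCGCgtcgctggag
Ndufb4: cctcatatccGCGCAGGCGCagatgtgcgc
Ndufs5: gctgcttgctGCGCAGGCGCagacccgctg
They lie at chr6:24527697-24527726, chr15:82354249-82354278, chr2:36049349-36049378, chr16:37654371-37654400 and chr4:123718265-123718294, all on the minus strand. The letters stood on the strand of the gene in Ndufa5, Ndufb4 and Ndufs5 and on the other strand in Ndufa6 and Ndufa8. Their knockout minus wild type differences were -0.02 for Ndufa5, -0.09 for Ndufs5, -0.56 for Ndufa6, -0.68 for Ndufa8 and -0.77 for Ndufb4, so genes with the motif included level and lower ones.

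The YY1 letters stood on the strand of the gene in all 4 members that held them. They began 23 to 36 bases after the start. The letters include ATG, and whether this is the start codon of each gene was not examined.
Ndufa9: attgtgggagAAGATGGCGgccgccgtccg
Ndufc1: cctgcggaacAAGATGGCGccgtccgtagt
Ndufs4: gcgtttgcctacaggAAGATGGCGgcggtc
Ndufs7: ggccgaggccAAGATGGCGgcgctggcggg
These stretches lie at chr6:126849096-126849125, chr3:51408914-51408943 and chr13:114388045-114388074 on the minus strand and at chr10:80249463-80249492 on the plus strand. The genes differed between the groups by -0.65, -0.69, -0.62 and -0.25 in that order. All of these are below 0, as were 31 of 33 members.

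A longer stretch, from 200 bases before to 30 bases after the start, is shown for Ndufb4, the member with the most NRF1 matches (3 in its window), and for Ndufa7, the member with the largest difference and none of the motifs.
Ndufb4: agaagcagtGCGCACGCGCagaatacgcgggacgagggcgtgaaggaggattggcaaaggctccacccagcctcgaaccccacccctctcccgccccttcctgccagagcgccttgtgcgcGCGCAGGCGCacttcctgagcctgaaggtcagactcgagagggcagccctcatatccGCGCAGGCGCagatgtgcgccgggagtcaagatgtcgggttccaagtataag
Ndufa7: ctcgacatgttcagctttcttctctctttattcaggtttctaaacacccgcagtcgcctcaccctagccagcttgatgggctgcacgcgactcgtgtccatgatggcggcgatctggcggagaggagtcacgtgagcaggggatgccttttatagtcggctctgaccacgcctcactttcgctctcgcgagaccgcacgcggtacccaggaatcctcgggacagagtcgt
The first lies at chr16:37654339-37654568 on the minus strand and the second at chr17:33824372-33824601 on the plus strand, the upstream of the 2 Ndufa7 starts. A match describes letters only and not binding, and these motif shares were not tested.

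Most complex I genes had a lower mean in the knockout tumours, in both arms of the enzyme, and none passed the adjusted threshold. The median difference over the 33 members was -0.56, a 1.48-fold lower signal, beside a median of -0.03 over the 13230 named genes above the filter. A lower knockout mean was found for 31 members and a higher one for 2, against 54.1% and 45.9% of those genes. The 2 higher ones were Ndufs1, whose probe was below the filter, and Ndufb11, at 0.00. The knockout and wild-type arrays did not overlap for 21 members, all lower (27.7% of the named genes were lower and 23.4% higher in this way). The members were selected on their symbols and their probes chosen by the highest mean log2 value over the 4 arrays, but the set was proposed with the knockout minus wild type values in view, so these values describe the genes and no test is attached to them. The size depended on array WT 3: without it the median was -0.24, and 29 members were lower. With the mean over all probes of a gene in place of the brightest probe, probes below the filter included, the median was -0.37.

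Across all 27979 probes above the filter, limma called 0 (0%) at a Benjamini-Hochberg adjusted p under 0.05, with 1984 lower (7.09%) and 2595 higher (9.27%) at an unadjusted p under 0.05. A prior with intensity trend and robust fitting called 4. Other scalings moved the median of the named genes above the filter to 0.12 (median scaling) or -0.11 (75th percentile scaling), and the share of these genes with a lower mean to 32.9% or 61.8%. The members' median stayed below that of the named genes by 0.54 in the quantile normalized values and by 0.52 under median scaling. The distance under 75th percentile scaling is the same by construction, since these scalings differ only by a constant per array.

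**Figure D1:**
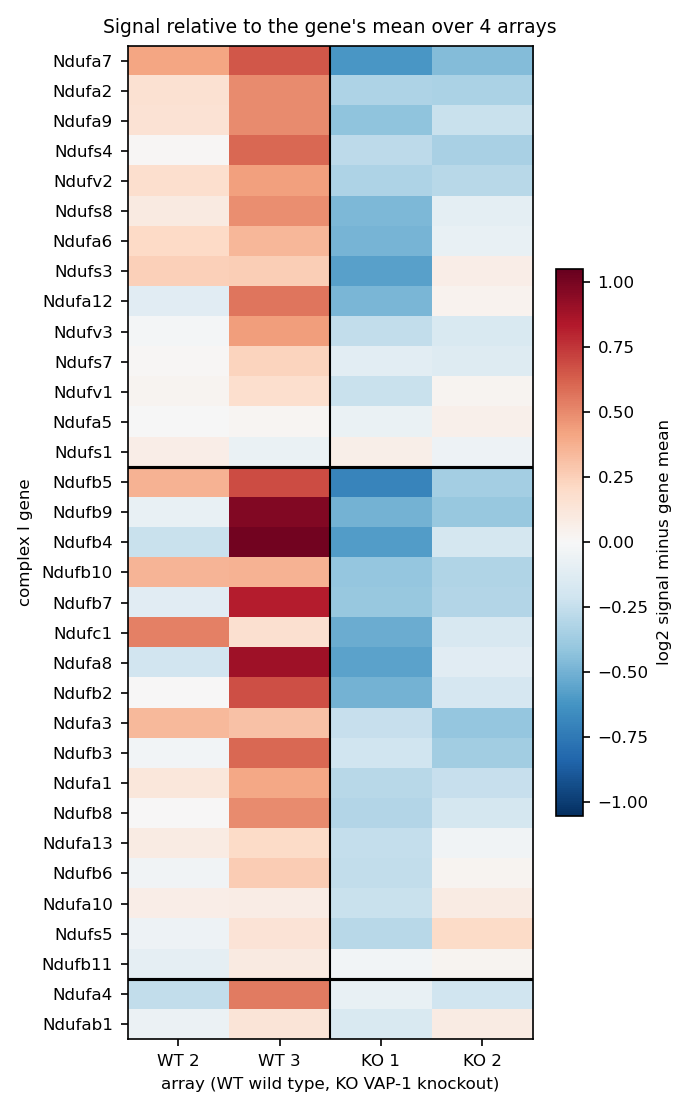
Signal of each complex I gene on each array (columns WT 2, WT 3, KO 1 and KO 2) as log2 signal minus the gene's mean over the 4 arrays; rows are genes, split by lines into the peripheral arm, the membrane arm, and Ndufa4 with Ndufab1. Most rows are highest on WT 3 (27 of 33 genes) and lowest on KO 1 (25 of 33).

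The arrays of each group were not alike for these genes. Of the 33 members 27 were highest on WT 3, 3 on WT 2 and 3 on KO 2, while 25 were lowest on KO 1 and 5 on KO 2. The median member was 0.29 higher on WT 3 than on WT 2 and 0.15 higher on KO 2 than on KO 1. Between groups the median was -0.35 for KO 1 against WT 2, -0.18 for KO 2 against WT 2, -0.77 for KO 1 against WT 3 and -0.65 for KO 2 against WT 3. The smallest of these, KO 2 against WT 2, was smaller than the gap between the wild-type arrays. In that pair 22 of 33 members were lower, whereas 31 were lower on KO 1 than on WT 2. For 16 members the wild-type arrays differed from each other by more than the group means did. KO 1 is also the array with the most skeletal muscle and keratinocyte signal, and without it the members' median was -0.43.

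**Figure D2:**
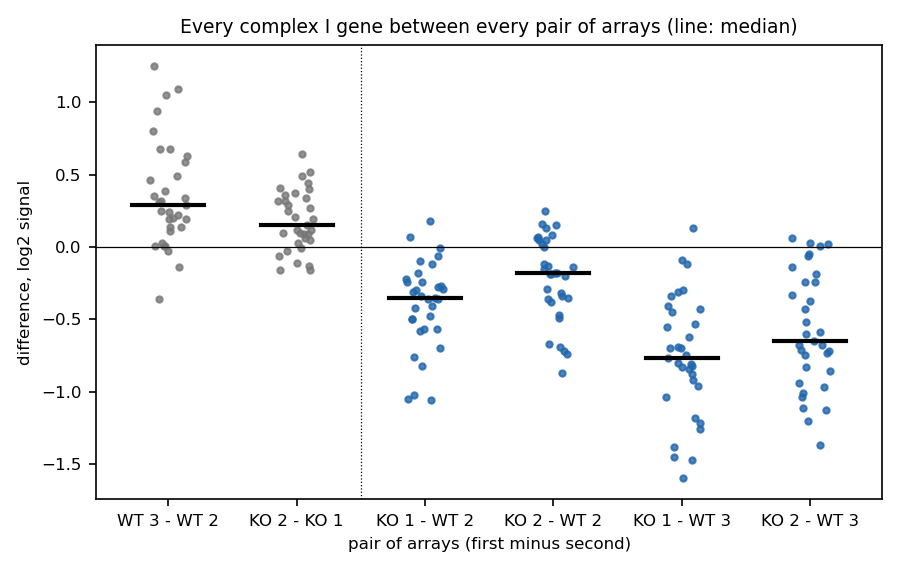
Difference in log2 signal (vertical axis) of each of the 33 complex I genes between each pair of arrays, first minus second, with pairs within a group in grey, pairs between groups in blue and black lines at the medians. All 4 medians between groups lie below 0 (-0.18 to -0.77), and the median of WT 3 minus WT 2 is 0.29.

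In the peripheral arm, 13 of 14 measured genes had a lower mean in the knockout, and 10 were lower without overlap of the groups. Of the named genes above the filter, 54.1% and 27.7% were lower in these ways. Of the nuclear core subunits, 6 were on the array and 5 above the filter. The median difference of the 6 was -0.37, which includes Ndufs1, below the filter. Ndufv2, which carries an iron-sulfur cluster of the NADH-oxidising end, read 10.05 and 10.30 on the wild-type arrays and 9.55 and 9.58 on the knockout arrays. Both knockout values lay below both wild-type values, by 0.47 at the nearest, and the difference was -0.61 ± 0.13 (SE, n = 2 each). It was -0.29 under median scaling and -0.37 over both probes of the gene, the second of which read 5.90 to 6.31, near the floor. Ndufs8, an iron-sulfur subunit close to the quinone site, read 11.40 and 11.79 in wild type and 10.83 and 11.20 in the knockout, a difference of -0.58 ± 0.20. These groups were also separate, with the spread inside each group larger than the gap of 0.20 between them.

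Ndufs3, a core subunit of the quinone-binding part and an early piece of assembly, read 11.31 and 11.32 in wild type against 10.49 and 11.13 in the knockout. Its difference of -0.50 ± 0.23 came mostly from KO 1, and it was -0.18 without that array. Ndufs7, which holds the last iron-sulfur cluster before ubiquinone, read 10.70 and 10.92 against 10.58 and 10.55, a small but separate difference of -0.25 ± 0.12 that was -0.02 under median scaling. Ndufv1, the flavin-binding subunit that oxidises NADH, read 12.04 and 12.18 against 11.77 and 12.04. KO 2 reached the level of WT 2, and the difference was -0.21 ± 0.14. Ndufs1, the largest iron-sulfur subunit, read 5.99 and 5.85 against 5.98 and 5.87, below the filter level of 6.07, so no difference could be read from its probe.

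Among the accessory subunits of the peripheral arm, Ndufa7 (chromosome 17) showed the largest difference of all members. It read 11.96 and 12.20 on the wild-type arrays and 10.94 and 11.09 on the knockout arrays. The groups were separated by 0.87, more than the spread inside either group, and the difference of -1.06 ± 0.14 corresponds to a 2.09-fold lower signal. It ran from -1.19 to -0.94 when any 1 array was left out. Ndufa5, a subunit of the quinone-binding part, stood at the other end with 12.54 and 12.57 in wild type and 12.48 and 12.60 in the knockout, a difference of -0.02 ± 0.11. Its knockout values enclose its wild-type values. A second, dimmer Ndufa5 probe differed by -0.50 ± 0.18 without overlap, so the probes of the gene disagree.

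The other accessory genes of this arm lay between these. Ndufa2, a small subunit with a thioredoxin-like fold, differed by -0.66 ± 0.15, and Ndufa9, which binds a nucleotide near the junction of the arms, by -0.65 ± 0.16. Ndufs4, a late-joining subunit whose loss causes Leigh-like disease in mice and people, differed by -0.62 ± 0.22, and Ndufa6, a partner of the acyl carrier protein Ndufab1, by -0.56 ± 0.17. The groups did not overlap for any of the 4, although Ndufa6 was at -0.13 under median scaling. Ndufv3, an accessory subunit next to the flavin site, differed by -0.42 ± 0.18 without overlap. Ndufa12, which resembles the assembly factor Ndufaf2, differed by -0.44 ± 0.30 with overlap, since WT 2 (11.26) lay below KO 2 (11.42). Without WT 3 the differences of Ndufv3 and Ndufa12 were -0.19 and -0.09.

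**Figure D3:**
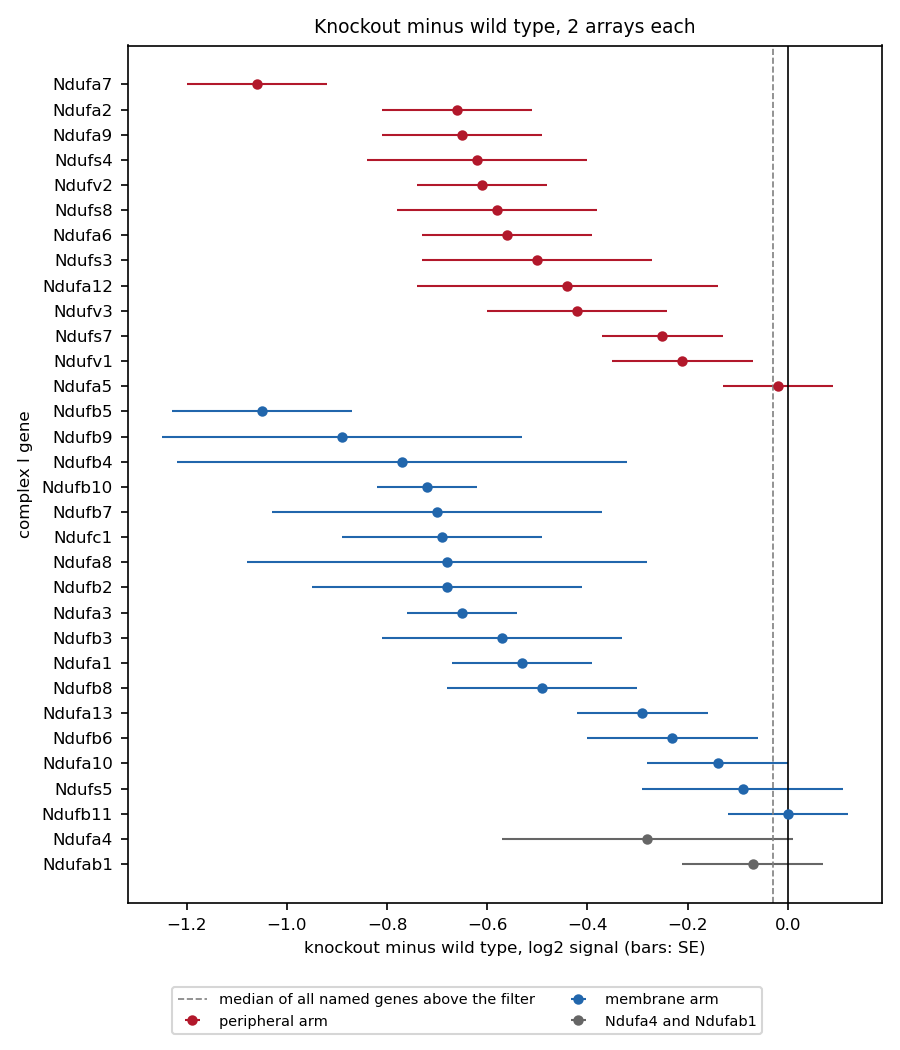
Knockout minus wild type difference in log2 signal (horizontal axis) of the 32 complex I genes above the filter, with bars of 1 SE, 2 arrays per group; the dashed line is the median of all named genes above the filter (-0.03). Both arms run from about level (Ndufa5 at -0.02, Ndufb11 at 0.00) to the largest differences (Ndufa7 at -1.06, Ndufb5 at -1.05).

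The membrane arm had 17 measured genes, of which 16 had a lower knockout mean and 11 were lower without overlap of the groups. Of the named genes above the filter, 54.1% and 27.7% were lower in these ways. The median was -0.65 beside -0.53 in the peripheral arm. The difference between the arms was not tested. Ndufb5, a small membrane subunit, read 8.83 and 9.15 in wild type and 7.77 and 8.11 in the knockout. The groups were 0.72 apart, and the difference of -1.05 ± 0.18 is a 2.08-fold lower signal, or -0.64 under median scaling. Ndufb10, one of the disulfide-bonded subunits that face the intermembrane space, read 10.51 and 10.52 against 9.75 and 9.84. The difference of -0.72 ± 0.10 had the smallest SE of the 32 genes above the filter and ran from -0.76 to -0.67 when any 1 array was left out, but it was -0.43 under median scaling. Ndufc1, a short membrane subunit, read 12.38 and 12.02 against 11.33 and 11.69, a difference of -0.69 ± 0.20. It was -0.34 over both of its probes, but the second probe, at 5.93 to 6.10, lay below the filter. Ndufc1 was among the 3 members lower on WT 3 than on WT 2.

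Several membrane arm genes owed most of their difference to WT 3. Ndufb9, which binds an acyl carrier protein in the distal membrane arm, read 8.37 and 9.42 in wild type and 7.95 and 8.05 in the knockout, and its difference of -0.89 ± 0.36 was -0.37 without WT 3. Ndufb7, another subunit of the intermembrane face, read 8.02 and 8.96 against 7.74 and 7.83, at -0.70 ± 0.33 with all arrays and -0.23 without WT 3. The groups of both genes were separate, with WT 2 close above the knockout. Ndufb4, whose promoter is printed above, read 6.83 and 8.08 against 6.48 and 6.88, and Ndufa8, also of the intermembrane face, 9.81 and 10.90 against 9.45 and 9.89. For both, KO 2 lay just above WT 2, and the differences of -0.77 ± 0.45 and -0.68 ± 0.40 were -0.15 and -0.14 without WT 3. Under median scaling Ndufb9, Ndufb7 and Ndufa8 differed by -0.49, -0.31 and -0.39.

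Near-level genes of the membrane arm were few. Ndufa10, which resembles nucleoside kinases, read 11.97 and 11.98 in wild type and 11.67 and 11.99 in the knockout, a difference of -0.14 ± 0.14. Ndufs5, of the intermembrane face, read 11.80 and 11.99 against 11.56 and 12.05, a difference of -0.09 ± 0.20. In both genes KO 2 was the highest of the 4 arrays and KO 1 the lowest, and the sign turned without KO 1 (0.02 and 0.16). Ndufb11, an X-linked subunit, read 6.22 and 6.41 against 6.29 and 6.35, close to the filter level, and differed by 0.00 ± 0.12.

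The remaining membrane arm genes had lower means. Ndufa3 differed by -0.65 ± 0.11 and Ndufa1, an X-linked subunit needed for assembly, by -0.53 ± 0.14. Ndufb2 (-0.68 ± 0.27), Ndufb3 (-0.57 ± 0.24) and Ndufb8 (-0.49 ± 0.19) were also separate between groups, as was Ndufa13, known as GRIM-19 (-0.29 ± 0.13). Ndufb6 overlapped, at -0.23 ± 0.17. The Ndufb2 probe lay near the floor, at 6.18 to 7.36, where differences are compressed. Over the whole set, 14 members were at least 1.5-fold lower, 2 of these at least 2-fold, and 9 differed by no more than 0.25 in either direction.

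Both genes outside the arm lists overlapped between the groups. Ndufa4, first described in complex I preparations and now assigned to cytochrome c oxidase, read 13.64 and 14.44 in wild type and 13.82 and 13.69 in the knockout. The knockout values lay between the wild-type values, the difference was -0.28 ± 0.29, and it was 0.12 without WT 3. Ndufab1, the mitochondrial acyl carrier protein, which also serves fatty acid and lipoic acid synthesis, read 12.64 and 12.84 against 12.54 and 12.79, a difference of -0.07 ± 0.14. Ndufab1 was also the gene with most probes, 5, and 1 of its dim ones, at 6.41 and 6.74 in wild type and 6.83 and 6.99 in the knockout, was higher by 0.34 ± 0.16. Both other kept probes, at -0.20 ± 0.29 and -0.23 ± 0.14, were lower.

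Second probes mostly had lower knockout means as well, many of them by less. In all, 11 members had several probes, which gave 16 further probes, 13 of them above the filter. Of these 13, 12 had a lower knockout mean, and the median was -0.18. Without overlap of the groups 5 were lower, and 8 lay closer to 0 than the brightest probe of the gene. Of the named genes above the filter, read at their brightest probes, 54.1% had a lower mean and 27.7% were lower without overlap. Since 8 of the 13 had a mean under 8 on the log2 scale, many lay near the floor. For Ndufs4, whose probes were all bright, the other probes read -0.48 ± 0.22 and -0.70 ± 0.22, close to the -0.62 of the brightest. For Ndufv2, Ndufv3, Ndufa13 and Ndufb8, the dimmer probe differed by -0.13, -0.11, -0.07 and -0.05. The dimmer Ndufs3 probe, at 7.89 to 8.59, read -0.18 ± 0.27. Subunits of this enzyme have many processed pseudogenes, and cross-hybridisation of probes was not tested.

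**Figure D4:**
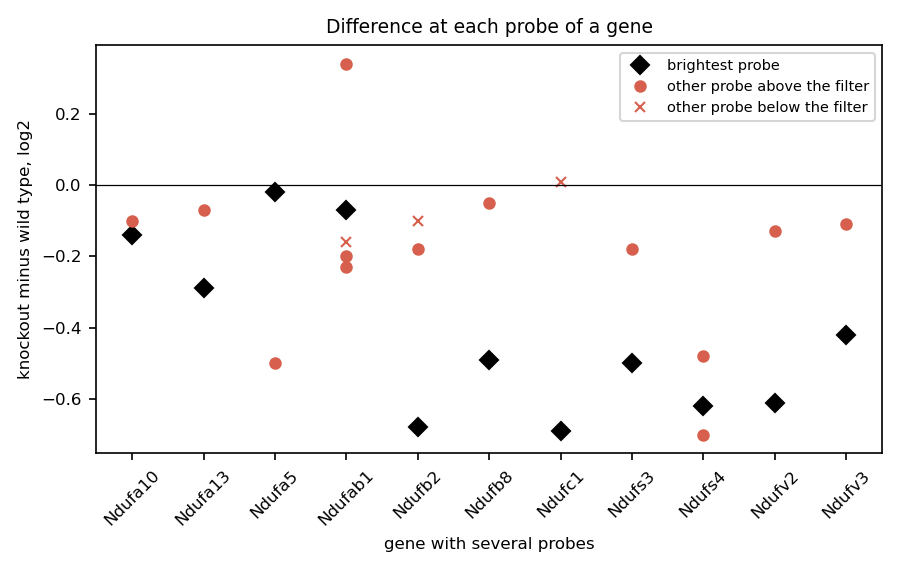
Knockout minus wild type difference (vertical axis, log2) at each probe of the 11 complex I genes with several probes; diamonds are the brightest probe, circles other probes above the filter and crosses those below it. Ndufs4 probes lie together (-0.48 to -0.70), while the other probes of Ndufb8 and Ndufv2 lie nearer 0 than the brightest, and 1 Ndufab1 probe lies above 0 (0.34).

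Complex I assembly factors, which build the enzyme but are not part of it, were mixed. Of 19 listed, 17 were on the array and 14 above the filter. limma called 0 of the 14 in either direction, with 4 lower and 0 higher at an unadjusted p under 0.05. Of all probes above the filter, 7.09% were lower and 9.27% higher at that p. The list had a median of -0.23, which became 0.02 under median scaling. It had 11 lower and 6 higher means, against 54.1% and 45.9% of the named genes above the filter. Ndufaf3, an early assembly factor, read 10.51 and 10.44 in wild type and 9.79 and 9.70 in the knockout (-0.73 ± 0.11, limma adjusted p = 0.116). Ndufaf2, which guides late assembly of the peripheral arm, read 10.27 and 10.70 against 9.71 and 9.70 (-0.78 ± 0.17, limma adjusted p = 0.155). Ndufaf8, a partner of Ndufaf5, read 9.38 and 9.44 against 8.86 and 9.09 (-0.43 ± 0.13, limma adjusted p = 0.215). The groups were separate for these, and none passed the threshold.

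The other respiratory complexes, II to V, had 36 of 38 listed genes on the array and 35 above the filter. Their median was -0.20, with 31 lower and 5 higher means, against 54.1% and 45.9% of the named genes above the filter. Without overlap of the groups 14 were lower and 2 higher, Sdha below the filter among the latter. Of the named genes above the filter 27.7% were lower and 23.4% higher in this way. Under median scaling the list median was -0.27 beside -0.40 for complex I. Under 75th percentile scaling it was -0.50 beside -0.62. The distance between the lists was smaller under these scalings than in the quantile normalized values. These scalings differ only by a constant per array, so they give the same distance by construction. limma called 0 of 35, with 11 lower and 1 higher at an unadjusted p under 0.05. Of all probes above the filter, 7.09% were lower and 9.27% higher at that p. The genes of smallest p were Cox7a2 of cytochrome c oxidase (-1.07 ± 0.14, limma adjusted p = 0.108), Uqcrb of complex III (-0.73 ± 0.12, limma adjusted p = 0.13) and Atp5l of ATP synthase (-0.49 ± 0.11, limma adjusted p = 0.154). Whether complex I differed from these complexes was not tested. None of the 7 complex I genes of mitochondrial DNA matched an annotated probe, so they were not analysed here.

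Regulators of mitochondrial biogenesis had means on either side of 0, with a median of 0.08 (0.46 under median scaling and 0.24 under 75th percentile scaling). Of 12 listed, 10 were on the array and 9 above the filter. A higher knockout mean was found for 7 (Tfam at 0.00 and Yy1 below the filter among them) and a lower one for 3. Of the named genes above the filter, 45.9% were higher and 54.1% lower. Without overlap of the groups 5 were higher (Yy1 among them) and 2 lower, against 23.4% and 27.7% of those genes. limma called 0, with 1 in each direction at an unadjusted p under 0.05. Of all probes above the filter, 7.09% were lower and 9.27% higher at that p. Polrmt, the mitochondrial RNA polymerase, read 9.98 and 9.50 in wild type and 10.43 and 10.46 in the knockout (0.71 ± 0.19, limma adjusted p = 0.194). Tfb1m, a methyltransferase of mitochondrial ribosomal RNA, read 8.10 and 8.43 against 7.77 and 7.80 (-0.48 ± 0.15, limma adjusted p = 0.237). Nrf1, which encodes a factor whose letters were searched in the promoters, read 9.65 and 9.65 against 9.46 and 9.24 (-0.30 ± 0.12, limma adjusted p = 0.333). For the other searched factors, Gabpa of GABP read 6.86 and 6.74 against 6.95 and 7.28, a higher knockout mean (0.31 ± 0.15). Gabpb1 differed by -0.11 ± 0.11 with overlap, and the Yy1 probe was too dim to read. Ppargc1a and Ppargc1b had higher knockout means without overlap, by 0.80 ± 0.33 and 0.49 ± 0.26. None of the tested genes of this list passed the threshold.

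**Figure D5:**
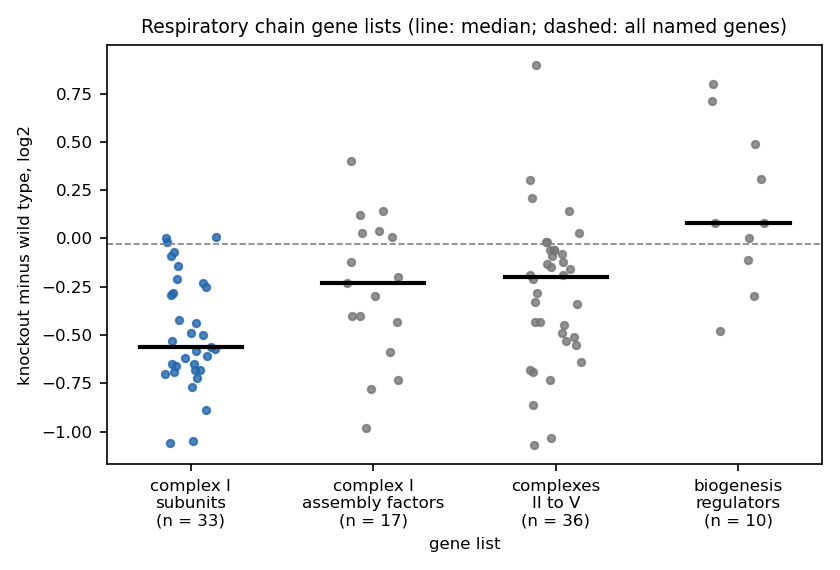
Knockout minus wild type difference (vertical axis, log2) of each gene in the complex I subunit list and 3 other lists, with black lines at the list medians and a dashed line at the median of all named genes above the filter (-0.03). Medians are -0.56 for complex I subunits, -0.23 for assembly factors, -0.20 for complexes II to V and 0.08 for biogenesis regulators; under median scaling those of complex I and of complexes II to V are -0.40 and -0.27.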

How the data were processed

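Total RNA of 4 tumours (100 ng each, 14 h of in vitro transcription, per the labels' protocols) was measured on 1 array each. The authors deposited an unnormalized probe intensity table and a processed intensity table, whose columns are quantile normalized on the linear scale, as found from the values; the scanner software and array model are not stated there or in the labels. Numeric rows of the first were paired with probe identifiers of the second by their 4 values, within 0.001 on the log2 scale, and all 46632 processed rows paired. Symbols came from the platform annotation, with 29976 probes of 1 symbol, 10 of several and 16646 of none. Newer names of ATP synthase genes were matched through RefSeq synonyms.

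Unnormalized values were corrected with normexp (offset 50), quantile normalized and taken to log2 with limma 3.58.1 in R 4.3.3; other steps used Python 3.11.15. Probes with a mean above the 40th percentile (6.07) entered a two-sided moderated test (lmFit, eBayes), and p-values were adjusted by Benjamini-Hochberg over 27979 probes. Medians and counts over the members used all 33 genes at the probe brightest in the processed table. In 10 simulations of this fit 70.8% of true 4-fold and 1.2% of true 2-fold changes, among 200 changed probes, passed after adjustment. With 2 arrays against 2, an exact permutation test cannot go below 0.333, so none was run, and 4 arrays limit the precision.

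Alternatives were the processed table, median and 75th percentile scaling, no background correction, no filter, a filter at the 60th percentile, a trend and robust prior, leaving out each array, and the mean over a gene's probes. The named genes are the core subunits, the 8 lowest and 5 highest other members above the filter, genes with a kept probe of opposite sign, and up to 3 genes of smallest p per other list; the remaining members are given in brief. The planned protein sequences were not used here, and promoter stretches were chosen after the values were seen. Some further genes of the other lists and of the markers were also named after the values were seen. The members, lists and tests were chosen with earlier results of these data known.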

Additional observations from a re-analysis of the deposited data

How the results depend on the processing

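The members' median was -0.57 in the authors' processed table, -0.40 and -0.62 under median and 75th percentile scaling, and -0.37 over all probes of a gene. Leaving out each array in turn gave medians from -0.68 to -0.24 and 28 to 32 lower members; the lowest size came without WT 3. Over the other alternatives 31 to 33 members were lower. The number of probes called across the array was 0 under most alternatives, 4 with the trend and robust prior, and 0 to 1667 when an array was left out: 1667 without WT 2, 875 without WT 3 and 0 without either knockout array, where the lone array of a group is assumed to vary like the others. Of 19 named members, leaving aside Ndufb11 at 0.00, the sign changed for 3 without WT 3 (Ndufab1, Ndufs1 and Ndufs5), for 5 without KO 1 (the same 3 with Ndufa10 and Ndufa5), and for Ndufs1 under both other scalings. No paired analysis was run because the labels state no pairs of tumours between the groups. Probes near the floor have compressed differences, which limits Ndufs1, Ndufb11, Ndufb2 and Ndufb4.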
